A study of Mus musculus with 2 samples.

Results

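The messenger RNAs described here encode receptor chains through which macrophages sense interleukins and colony-stimulating factors. A list of 10 genes was taken (Il4ra, Il13ra1, Il2rg, Il10ra, Il10rb, Il6ra, Il6st, Csf2ra, Csf2rb and Csf1r), and every probe set carrying only 1 of these symbols in the platform annotation was read. This gave 23 probe sets for 9 genes, out of 20380 probe sets for 12393 genes. Il2rg had no entry in that annotation and was not analysed here. A further probe set that names Csf2rb together with Csf2rb2 was left out.

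The cells were RAW264.7, a tumour line of mouse macrophage-like cells, profiled on Affymetrix mouse arrays. The treated cells were kept for 4 h in 300 uM adenosine together with 1000 U/ml of IFN-gamma, and the comparison cells for 4 h in 1000 U/ml of IFN-gamma alone. Total RNA from 2 experiments was pooled for each treatment and hybridized to 1 array, so there is no replicate, no test and no p-value. No array of cells without IFN-gamma was analysed here, and every value below describes adenosine added to IFN-gamma. In such bulk RNA, fewer cells expressing a gene and less RNA per cell cannot be told apart.

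Most of these receptors belong to the cytokine receptor families that lack a kinase of their own and signal through JAK kinases and STAT factors bound to their tails. A ligand-specific chain usually pairs with a chain shared between several cytokines: IL-4Ra with the common gamma chain or with IL-13Ra1, IL-10Ra with IL-10Rb, IL-6Ra with gp130, and the GM-CSF receptor alpha chain with the common beta chain. The CSF-1 receptor is instead a tyrosine kinase on which macrophages depend for survival. In macrophages, IL-4 and IL-13 drive alternative activation, and IL-10 restrains the production of inflammatory cytokines.

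Signals of the adenosine array were lower over nearly the whole array, with a median deposited intensity of 15.2 against 45.9 on the IFN-gamma array. The log2 ratios of IFN-gamma plus adenosine over IFN-gamma were therefore centred on their median of -1.495, which multiplies the adenosine signals by 2.82. Spiked-in control probe sets had a median deposited log2 ratio of -0.53, a smaller drop, so the centring also removes a shift that they do not share. A floor of 44.0, the 50th percentile of the scaled signals, was applied, and a gene whose brighter array lay below it was not counted as measured. The error set beside a log2 ratio here is how far different probe sets of a gene scattered, with an SD of 0.52 over 2375 genes. Variation from culture to culture or array to array is not part of it. Macrophage markers were measured for all 14 genes matched, with log2 ratios from -1.52 (Fcgr1) to 1.24 (Laptm5) and a median of 0.48. The median over all measured genes was -0.08. Other probe sets of Laptm5 ran from -0.41 to 1.96. Of markers of other cell types, 2 of 9 for T and B cells and 1 of 5 for dendritic cells were measured, and none of 9 for granulocytes and mast cells, of 10 for fibroblasts, endothelium and epithelium, or of 2 for erythroid cells. Summed signals of these 5 lists were between 3.38 and 393 on the adenosine array and between 1.70 and 722 on the IFN-gamma array, and their part in the receptor values was not tested. The measured T and B cell markers were Ighm (275 with adenosine, 658 with IFN-gamma alone) and Zap70 (97.0 and 45.9). Their log2 ratios were -1.26 and 1.08.

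All 9 receptor genes were measured, by 18 of their 23 probe sets. Il4ra was the 1 gene at least 2-fold higher with adenosine, and Il10ra was the 1 gene at least 2-fold lower. Over all 6818 measured genes, 4.52% were higher by that margin and 10.1% lower. In the values as deposited, 0 of the 9 were 2-fold higher and 7 were 2-fold lower, beside 0.141% and 78.8% of all genes measured on that scale. A count of 1 among 9 genes is too small to be read against that background. The other 7 genes had log2 ratios between -0.64 (Il13ra1) and 0.73 (Il6ra), and the median of the 9 was -0.09, against -0.08 for all measured genes. Of the 9 genes, 4 lay within 1 SD of probe set scatter of 0, as did 59.8% of all measured genes.

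**Figure D1:**
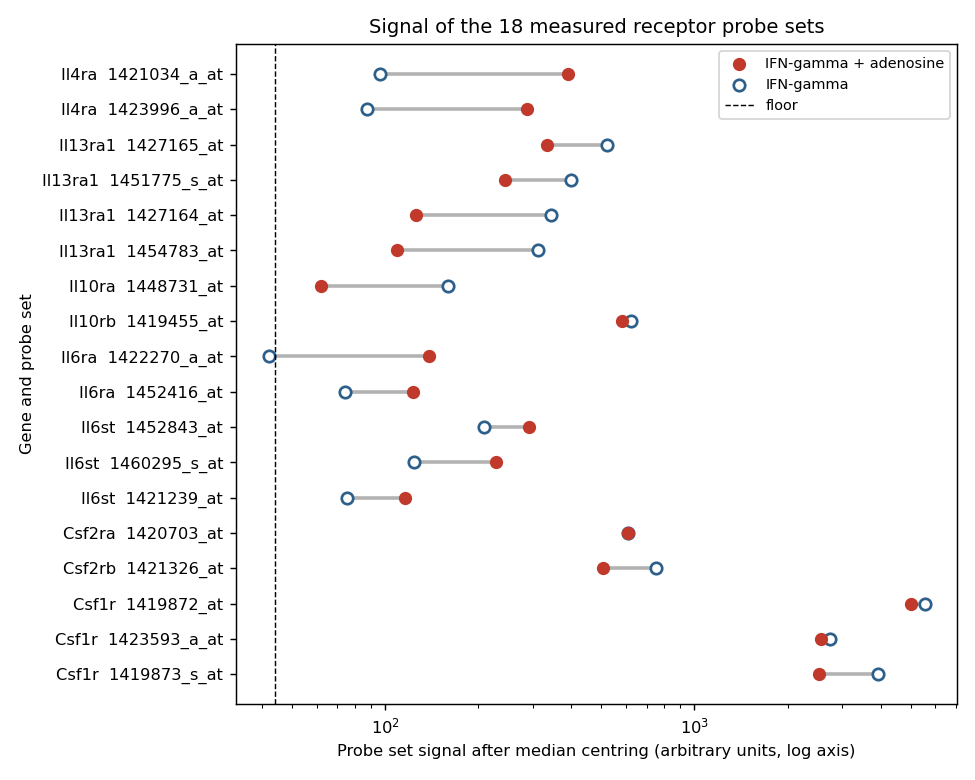
Signals of the 18 measured probe sets of 9 receptor genes on the array of IFN-gamma plus adenosine (filled) and on the array of IFN-gamma alone (open), after median centring, on a log axis in arbitrary units. The dashed line is the floor of 44.0. Signals of different probe sets are not comparable as transcript levels. Adenosine signals lie to the right for Il4ra, Il6ra and Il6st and to the left for the other genes. The shift is slight for Il10rb, Csf2ra and the brightest probe set of Csf1r.

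Il4ra encodes the chain that binds IL-4 and that both IL-4 receptor types share. Its brightest probe set had a signal of 391 on the adenosine array and 96.3 on the IFN-gamma array. That is a log2 ratio of 2.02, or 4.06-fold higher, and it is 3.92 times the SD of probe set scatter. A second probe set had 288 with adenosine and 87.2 with IFN-gamma alone, a log2 ratio of 1.72. The third stayed below the floor, with 7.05 and 2.20. Il4ra ranked 19 from the top among the 6818 measured genes, so that 99.7% of them had a lower ratio.

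The sign of the Il4ra ratio did not rest on that centring, but its size did. In the deposited values, before the centring applied here, its brightest probe set read 138.6 with adenosine and 96.3 with IFN-gamma alone, a log2 ratio of 0.53. Its second probe set read 102.0 and 87.2 (log2 ratio 0.23). The first of these ratios is about as large as the SD of probe set scatter (0.52), and the second lies within it. With spiked-in control scaling the brightest probe set had a log2 ratio of 1.05. A deposited signal higher on the adenosine array was seen in 104 of 7117 genes measured on that scale (1.46%), and Il4ra ranked 31 among them. No other receptor gene was higher by its brightest probe set in the deposited values, although the second probe set of Il6ra was, at 49.1 with adenosine and 42.0 with IFN-gamma alone. Among the 2770 genes with at least 2 measured probe sets, all measured probe sets were at least 2-fold higher in 43 (1.55%), Il4ra included.

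Il13ra1 encodes the chain that binds IL-13 and completes the second type of IL-4 receptor with IL-4Ra. Its 4 measured probe sets were all lower with adenosine. The brightest had a signal of 335 on the adenosine array and 521 on the IFN-gamma array, a log2 ratio of -0.64, and the next had 244 and 399 (-0.71). The remaining pair were further from 0, with 126 on the adenosine array and 344 on the IFN-gamma array (-1.45), and with 109 and 312 (-1.51). By probe set, Il13ra1 was therefore short of 2-fold in 2 cases and past 2-fold lower in 2. The other probe set was below the floor, at 16.3 and 12.4.

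The log2 ratio of Il4ra was higher than that of Il13ra1 by 2.66, a 6.31-fold shift between the chains. A constant scaling factor cancels in this difference, and it is 3.64 times the SD of such a difference from probe set scatter (0.73). Over the 8 pairings of a measured Il4ra probe set with a measured Il13ra1 probe set, the difference ran from 2.36 to 3.53. The pairings reuse the same probe sets and are not separate checks. With every Il4ra probe set above 0 and every Il13ra1 probe set below it, each pairing had to be positive. For Il4ra and the common gamma chain gene Il2rg no such value was computed, because Il2rg was not analysed here.

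**Figure D2:**
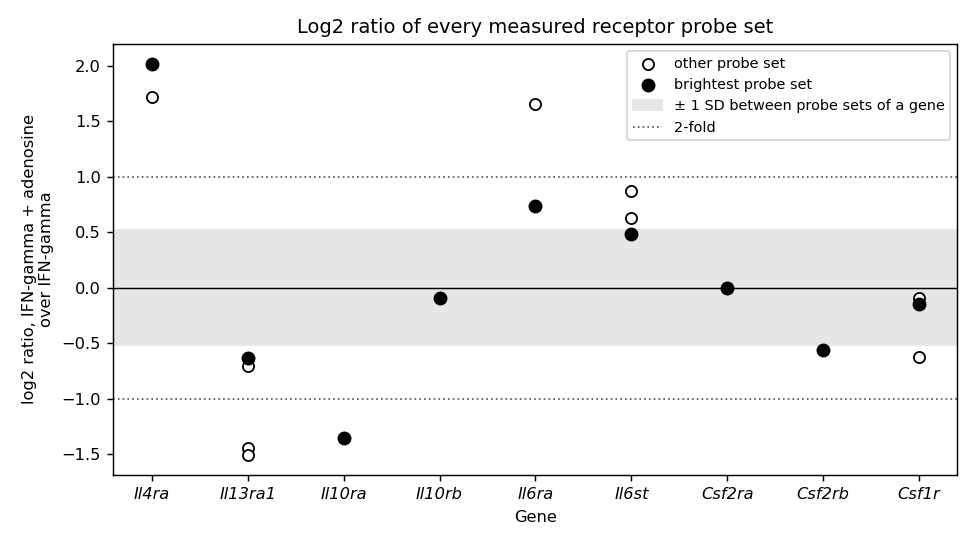
Log2 ratio of IFN-gamma plus adenosine over IFN-gamma for each measured probe set of the 9 receptor genes, after median centring. Filled points are the brightest probe set of a gene and open points its others. The grey band is 1 SD of the scatter between probe sets of a gene (0.52), and dotted lines mark 2-fold. The Il4ra probe sets lie at 1.72 and 2.02, and the 4 of Il13ra1 lie between -1.51 and -0.64.

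For promoter sequence, 6 of the 10 listed genes were matched in the RefSeq table of GRCm38.p6, and the 250 bases before the annotated start are used. The windows of Il4ra and Il13ra1 are shown because these partner chains differed most, and that of Csf2ra because it holds a cAMP response element, the site bound by CREB factors. Capitals mark matches to 4 motifs, searched on both strands: TTCNNNGAA for STAT dimers, TGACGTCA for CREB factors, TGANTCA for AP-1 and GAGGAA for PU.1. No matches overlapped, and adjoining GAGGAA matches run together.
Il4ra, chr7:125552021-125552270, plus strand: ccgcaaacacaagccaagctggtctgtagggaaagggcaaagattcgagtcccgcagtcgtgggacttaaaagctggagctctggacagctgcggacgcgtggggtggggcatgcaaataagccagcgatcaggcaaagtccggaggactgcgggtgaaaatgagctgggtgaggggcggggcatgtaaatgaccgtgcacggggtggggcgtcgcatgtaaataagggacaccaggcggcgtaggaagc
Il13ra1, chrX:36111858-36112107, plus strand: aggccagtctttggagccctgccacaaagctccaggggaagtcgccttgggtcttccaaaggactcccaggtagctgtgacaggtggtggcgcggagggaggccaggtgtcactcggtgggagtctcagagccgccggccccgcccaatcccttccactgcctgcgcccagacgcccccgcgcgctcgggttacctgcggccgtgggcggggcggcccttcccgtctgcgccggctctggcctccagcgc
Csf2ra, chr19:61228419-61228668, minus strand: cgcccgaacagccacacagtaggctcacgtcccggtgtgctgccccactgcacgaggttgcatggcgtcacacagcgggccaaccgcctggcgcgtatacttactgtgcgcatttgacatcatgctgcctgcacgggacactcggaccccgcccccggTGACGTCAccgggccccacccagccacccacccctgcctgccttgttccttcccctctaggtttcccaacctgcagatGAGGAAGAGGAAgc

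None of the 4 motifs was found in the Il4ra or Il13ra1 window, so neither carries capitals. Csf2ra had 1 TGACGTCA beginning 92 bases before the start and 2 GAGGAA matches close to the start, and Il6ra had 1 GAGGAA. TGACGTCA was present in 1.55% of the 32851 promoter windows of the table and GAGGAA in 23.3%. TTCNNNGAA was present in 7.02% and TGANTCA in 6.75%, and neither in a matched receptor window. The windows of Il4ra, Il13ra1, Csf2ra, Il6ra and Il6st were rich in G and C, at 59.6%, 70.8%, 64.8%, 65.2% and 66.0%, against a median of 52.4% over all windows, while that of Il2rg had 49.2%. These matches describe letters in a short window and no binding was measured.

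Il10ra encodes the IL-10-binding chain of the IL-10 receptor. Its 1 measured probe set had a signal of 62.0 on the adenosine array and 159.1 on the IFN-gamma array, 2.57-fold lower (log2 ratio -1.36). The adenosine signal lay close to the floor, and 95.1% of measured genes had a higher ratio. The other 2 probe sets did not reach the floor, at 7.89 with adenosine and 25.6 with IFN-gamma alone, and at 0.282 and 0.40. The Il10ra value therefore rests on a single probe set.

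Il10rb encodes the chain that the IL-10 receptor shares with the receptors of IL-22 and of lambda interferons. It had a signal of 585 on the adenosine array and 624 on the IFN-gamma array, a log2 ratio of -0.09, which turned to 0.04 with quantile normalization and to 0.01 with loess scaling. The difference between the chains, Il10ra minus Il10rb, was -1.27, or 1.74 times the SD of a difference. The ligand-binding chain thus had the lower ratio of this pair, by 1 probe set for each gene.

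The IL-6 receptor chains both lay above 0 after centring. Il6ra, the chain that binds IL-6, had a signal of 123 on the adenosine array and 74.3 on the IFN-gamma array by its brightest probe set, a log2 ratio of 0.73. Its other probe set had 138 with adenosine and 42.0 with IFN-gamma alone. The second value is below the floor, so this probe set was at least 3.15-fold higher, and the probe sets of Il6ra differed by 0.92 on the log2 scale.

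Il6st encodes gp130, the signal chain shared by IL-6, IL-11, LIF and oncostatin M. Its 3 probe sets had signals of 292, 227 and 116 on the adenosine array, against 208, 124 and 75.3 on the IFN-gamma array. Their log2 ratios were 0.49, 0.87 and 0.63, close to each other and all short of 2-fold. Il6ra minus Il6st was 0.25, within the SD of a difference, and ran from -0.14 to 1.17 over the 6 pairings of probe sets. Both genes turn negative in the values as deposited, Il6ra to -0.76 and Il6st to -1.01, and with spiked-in control scaling, to -0.23 and -0.48.

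Csf2ra, the GM-CSF-binding chain, had a signal of 608 on the adenosine array and 611 on the IFN-gamma array. Its log2 ratio of -0.01 was the nearest to 0 of the 9 genes, and it turned to 0.07, 0.12 and 0.09 with trimmed mean, quantile and loess scaling. Its second probe set was below the floor, at 13.8 and 11.2. Csf2rb, the common beta chain of the GM-CSF, IL-3 and IL-5 receptors, had 508 on the adenosine array and 750 on the IFN-gamma array, a log2 ratio of -0.56. Csf2ra minus Csf2rb was 0.56, within the SD of a difference. Csf2rb2, the beta chain that serves IL-3 alone in mice, is similar in sequence to Csf2rb, and cross-hybridization between them was not tested. It had 214 on the adenosine array and 364 on the IFN-gamma array (-0.77).

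Csf1r encodes the tyrosine kinase receptor of CSF-1 and IL-34 and marks the macrophage lineage. Its 3 probe sets had signals of 5005, 2572 and 2535 on the adenosine array, against 5552, 2738 and 3922 on the IFN-gamma array. The log2 ratios were -0.15, -0.09 and -0.63. All 3 lay below 0, and the brightest lay within the SD of 0.40 found among the 594 brightest genes of that estimate. With quantile normalization and loess scaling, in which the scaling varies with signal, the brightest probe set had -0.43 and -0.52.

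Among the 5 receptor genes with at least 2 measured probe sets, all 14 probe sets lay on their gene's side of 0. Of all 2770 such genes, 56.0% had every measured probe set on 1 side, and 5 genes are too few to be read against that share. The side also depends on the centring: as deposited, the Il6ra probe sets lay on opposite sides of 0, at -0.76 and 0.23. Within these 5 genes the median range between the lowest and the highest probe set was 0.54, against 0.60 for all such genes.

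**Figure D3:**
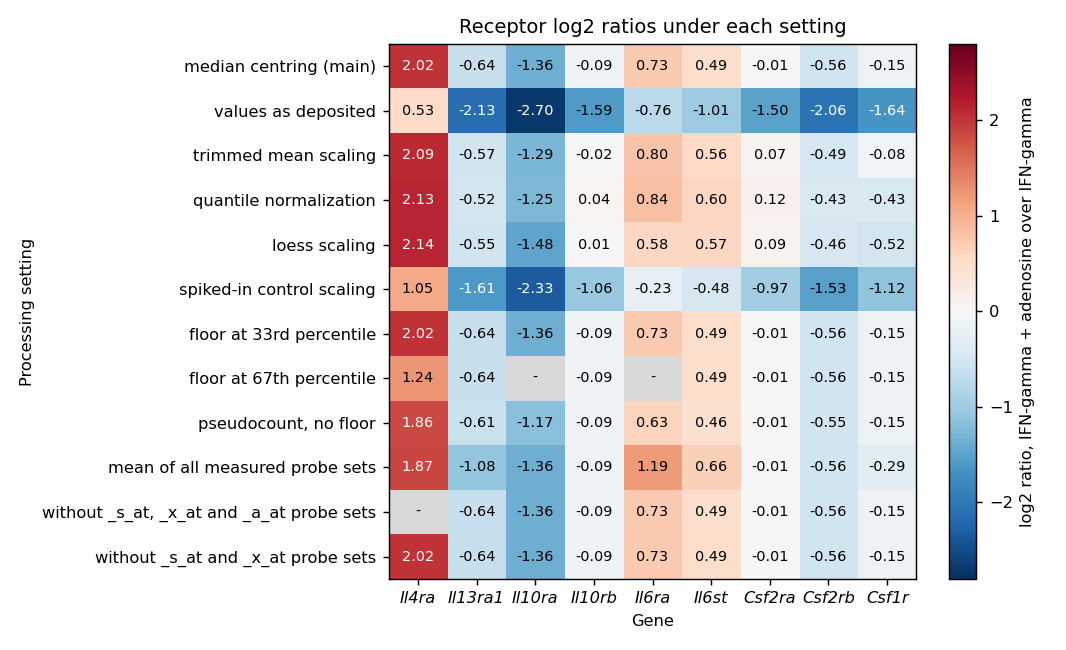
Log2 ratios of IFN-gamma plus adenosine over IFN-gamma for the 9 receptor genes (columns) under the main setting and 11 alternatives (rows), coloured from lower (blue) to higher (red) with adenosine. Grey cells had no value. Il4ra is above 0 in each setting that gave it a value, from 0.53 to 2.14, and Il10ra is below 0 in each, from -2.70 to -1.17.

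The pathway lists were read next, beginning with the ligands. Their counts at 2-fold stand beside 4.52% higher and 10.1% lower among all measured genes. Lists this short hold too few genes to be read against those shares. Of 18 ligand genes on the array 16 were below the floor on both arrays, among them Il4, Il13, Il10, Il6 and Csf2. Il15, which signals through the common gamma chain, was 2.45-fold lower, with 118 on the adenosine array and 290 on the IFN-gamma array. Csf1, the ligand of the CSF-1 receptor, was at 36.4 with adenosine and 54.7 with IFN-gamma alone, on either side of the floor.

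Of 19 other chains of these receptor families, 4 were measured and all 4 lay below 0, with a median of -0.84. Over all 6818 measured genes 3816 lay below 0, and 4 genes are too few to be read against that. Il15ra, the private chain of the IL-15 receptor, was 5.76-fold lower, at 44.8, just above the floor, on the adenosine array and 258 on the IFN-gamma array, and its second probe set gave -1.62. Csf2rb2 and the TSLP receptor gene Crlf2 (-0.91) were short of 2-fold. The IL-12 receptor gene Il12rb1 was at least 1.17-fold lower (-0.23, with its adenosine signal raised to the floor). Its signals were 8.74 on the adenosine array and 51.6 on the IFN-gamma array, so the size of its decrease is not known. Of 17 growth factor receptor genes, 4 were measured. Tgfbr2, a TGF-beta receptor chain, was 2.24-fold lower by its brightest probe set, but another probe set gave 1.94 in the opposite direction.

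For JAKs and STATs the 9 measured genes had a median of -0.06, with 2 past 2-fold lower and 1 past 2-fold higher. Stat6, the factor activated by IL-4Ra, was 2.04-fold lower, at 413 on the adenosine array and 844 on the IFN-gamma array, with a second probe set at -0.70. Jak2, the kinase bound to the GM-CSF common beta chain, was 2.10-fold lower (second probe set -0.87). Stat5a, a factor downstream of GM-CSF, was 2.56-fold higher, but its second probe set gave 0.19 and its brightest turns to -0.14 in the values as deposited. Jak1 had a log2 ratio of -0.06 by its brightest probe set, with others from -0.55 to 1.22, and Stat3 had 0.16, with another at -0.24. Each of these genes changed sign under 4 of 11 alternatives. The 2 lower calls, Stat6 and Jak2, were both lost with quantile normalization, with loess scaling and with the mean of all probe sets, and 1 of them with trimmed mean scaling.

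Among feedback genes 14 were measured and their median was -0.28, with 3 past 2-fold lower and 2 past 2-fold higher. Cish, a STAT5-induced inhibitor, was 2.63-fold lower, and Socs5, whose product restrains IL-4 receptor signalling, 2.66-fold lower (second probe set -1.60). Their adenosine signals, 45.9 and 46.8, lay just above the floor. The phosphatase gene Ptpn6 was 2.25-fold lower, but its second probe set, at -0.69, was short of 2-fold. Socs7 was 4.63-fold higher, with 227 on the adenosine array and only 49.1 on the IFN-gamma array. Socs4 was at least 3.27-fold higher, from 34.4, below the floor, and its second probe set gave 0.50.

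Adaptors and cytoplasmic kinases had a median of -0.10 over 11 measured members. Shc1, an adaptor of tyrosine kinase and cytokine receptors, was 2.26-fold higher (second probe set 1.47), although its brightest probe set turns to -0.32 in the values as deposited. Fgr, a SRC-family kinase of myeloid cells, was 3.26-fold lower. Of the 3 measured genes linked to receptor shedding none was past 2-fold. Adam17, the protease that releases the IL-6 and CSF-1 receptors from the surface, had a log2 ratio of -0.61 by its brightest probe set, and others gave 0.03 and 0.22.

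Of 18 genes known as IL-4 targets in macrophages 7 were measured, with a median of -0.42. Clec7a, the beta-glucan receptor gene, was 6.10-fold lower, at 240 on the adenosine array and 1464 on the IFN-gamma array. Egr2, a zinc finger factor gene, was at least 5.82-fold lower, with a second probe set at -2.42. By brightest probe sets none was past 2-fold higher. Tgm2, the transglutaminase 2 gene, had 1586 on the adenosine array and 914 on the IFN-gamma array, a log2 ratio of 0.79, with other probe sets from -0.57 to 1.67, and turns to -0.17 with spiked-in control scaling and -0.70 as deposited. Arg1, Retnla and Chil3, commonly used markers of the IL-4 response, were below the floor on both arrays.

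Of 10 IL-10 and IL-6 targets on the array 9 were measured, with a median of 0.03. Tnfrsf1b, a TNF receptor gene, was 3.61-fold higher, at 303 on the adenosine array and 83.9 on the IFN-gamma array, and its second probe set gave 2.17. Junb, an AP-1 subunit gene, was 2.07-fold higher, and turns to -0.45 in the values as deposited. Etv3, a repressor induced by IL-10, was 3.15-fold lower, with other probe sets from -1.04 to 0.57.

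Genes linked to the CSF-1 and GM-CSF receptors had a median of -0.27 over 13 measured members, and 3 of them were past 2-fold lower. Irf8, a macrophage lineage factor, had a log2 ratio of -2.99 (second probe set -0.66). Runx1, a regulator of the Csf1r gene, was 2.48-fold lower, with other probe sets from -1.65 to 0.60. Its adenosine signal, 45.9, lay just above the floor. The cyclin gene Ccnd2 was 2.91-fold lower, with other probe sets from -2.37 to -0.42. Spi1, which encodes PU.1, an activator of Csf1r, had a log2 ratio of 0.31, and turns to -1.18 in the values as deposited. By brightest probe sets no member was past 2-fold higher. Cebpb, a myeloid transcription factor gene, was closest, with 2084 on the adenosine array and 1087 on the IFN-gamma array. Its log2 ratio was 0.94, and 1.64 by its second probe set. It passed 2-fold with trimmed mean scaling and with the mean of all probe sets, and turns to -0.03 with spiked-in control scaling and -0.56 as deposited.

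**Figure D4:**
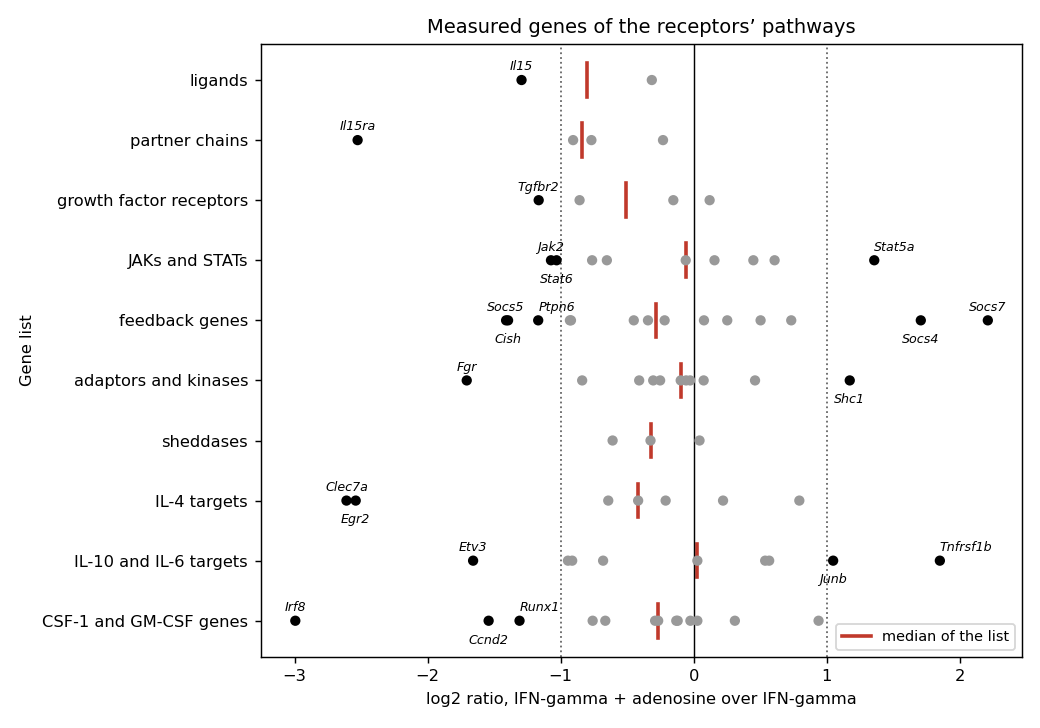
Log2 ratio of IFN-gamma plus adenosine over IFN-gamma for every measured gene of the 10 pathway lists, 1 point per gene from its brightest probe set. Black points are at least 2-fold from 0 and are named, and red bars are list medians. The medians lie between -0.84 and 0.03, against -0.08 for all measured genes.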

How the data were processed

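The deposited file holds linear intensity values of 22690 probe sets on each of 2 arrays. The submitters' processing notes name GCOS. How GCOS computed and scaled them is not given in the sources used here. Of 22626 gene probe sets, 20380 carried 1 symbol in the platform annotation, 691 several and 1555 none, and only those with 1 symbol were used. Symbols were checked by Entrez identifier against RefSeq (GRCm38.p6).

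Log2 ratios were centred on their median over probe sets above the deposited floor of 24.5 on both arrays. The floor was then set at the 50th percentile of scaled signals, and lower signals were raised to it. The brightest probe set by mean signal stood for its gene. With 1 array per treatment there was no test. Genes were counted at 2-fold, and the number of arrays limits the precision.

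Text names every receptor probe set and, in each pathway list, the genes past 2-fold; other list genes were added as examples after their values were seen. Members and lists were chosen with earlier results of these data known. The calculation was tested on simulated arrays that differed by a constant factor and random scatter, with shifts added to chosen genes. That does not test which scaling fits these arrays. Python 3.11.15, pandas 2.3.3 and statsmodels 0.14.6 were used, with 13 alternatives.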

Additional observations from a re-analysis of the deposited data

How the results depend on the processing

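No paired analysis was possible because there is a single array per treatment, which also leaves no replicate to omit. Median centring gave 1 receptor gene at least 2-fold higher and 1 lower, beside 4.52% and 10.1% of all measured genes. The values as deposited gave 0 and 7 (background 0.141% and 78.8%), and spiked-in control scaling gave 1 and 5 (0.473% and 50.7%). The mean of all measured probe sets gave 2 and 2 (3.91% and 8.43%), as did a 1.5-fold threshold (12.9% and 21.8%). The floor at the 67th percentile and a 3-fold threshold each gave 0 lower (6.48% and 2.96% over all genes). Without probe sets named _s_at, _x_at or _a_at Il4ra had no value and 0 were higher (4.8% over all genes). Keeping those named _a_at, a choice made after seeing the data, restored the 1 (4.87%). The median of the receptor genes was -1.59 as deposited and -1.06 with spiked-in control scaling, and Il4ra minus Il13ra1 was 1.88 with the floor at the 67th percentile, which raised the Il4ra signal of the IFN-gamma array to that floor. The other alternatives kept the counts of the main setting. Il4ra and Il10ra, the receptor genes past 2-fold in that setting, did not change sign.

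Over all 6818 measured genes, 308 were at least 2-fold higher and 691 lower. Of the genes past 2-fold, 69.2% were thus lower. That share was 99.8% as deposited (10 and 5605 of 7117) and 99.1% with spiked-in scaling (33 and 3538 of 6975). With quantile normalization it was 58.8% (398 and 568 of 6829). The floor at the 33rd percentile gave 599 and 944 of 9177 genes, and that at the 67th 133 and 328 of 5062. A 1.5-fold threshold gave 879 and 1489 of 6818, and a 3-fold threshold 67 and 202. List medians below 0 turned positive with the floor at the 33rd percentile for ligands (0.09), partner chains (0.08), growth factor receptors (0.12) and sheddases (0.24). With the pseudocount they did for ligands (0.06), partner chains (0.26) and sheddases (0.11). Others that turned were feedback genes without _s_at, _x_at and _a_at probe sets (0.08), CSF-1 and GM-CSF genes with the mean of probe sets (0.04), adaptors with quantile normalization (0.01), and JAKs and STATs with trimmed mean, quantile and loess scaling (0.01, 0.05 and 0.01). The IL-10 and IL-6 target median turned to -0.33 with the floor at the 33rd percentile, -0.32 with the pseudocount, -1.21 as deposited and -0.68 with spiked-in scaling. Il10ra and Il6ra lie too near the floor to be measured at the 67th percentile.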

Other observations

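Probe sets of 1 gene could lie far apart. Of the receptors, Il6ra had the widest range (0.92 on the log2 scale) and Il13ra1 the next (0.87). Among the pathway genes, Tgfbr2 gave -1.16 by its brightest probe set and 1.94 by another, Grb2, an adaptor gene, -0.03 and 1.94, Ptpn11, a phosphatase gene, -0.34 and 1.56, the ubiquitin ligase gene Cbl -0.30 and 1.40, and the kinase gene Jak1 -0.06 and, at the highest, 1.22. Such genes were read by the brightest probe set, and their direction depends on that choice.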
